A study of Mus musculus with 12 samples.

Results

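The comparison of postnatal day 14 (P14) with postnatal day 7 (P7) covers the second postnatal week of the mouse cerebellum in cells marked by an Aldh1l1-GFP transgene, in which the Aldh1l1 promoter drives green fluorescent protein (GFP). Aldh1l1 encodes a folate enzyme that is used as a marker of astrocytes, and the GFP line labels Bergmann glia, the other cerebellar astrocytes and their progenitors. The cerebellum of Aldh1l1-GFP mice was dissociated, GFP+ cells were sorted by fluorescence, and their RNA was sequenced in 3 libraries at each time point, so that 6 of the 12 libraries of the series enter this comparison. All groups carry the same reporter and none was treated. Both sexes were used in the study, and the labels give neither the sex nor the number of animals behind a library, so p-values measure the spread between libraries. That spread was estimated over all 12 libraries, those of P1 and P28 included. Of the 24421 genes listed, the 15464 that reached a value of 10 in 3 or more of the 12 libraries were tested.

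In the second week Bergmann glia, the radial astrocytes whose cell bodies lie beside Purkinje cells, spread their processes over maturing synapses and take up the glutamate released there. In the same days granule neuron precursors stop dividing and their daughters move inward, the progenitors that give rise to inhibitory interneurons and late astrocytes run down, and oligodendrocytes begin to wrap axons. Glial maturity is usually read from glutamate transporters, potassium channels and gap junction proteins, and proliferation from the genes of DNA replication and mitosis.

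Reads on genes numbered 6399499 to 11328604 in the P7 libraries, with the lowest value in replicate 2, and 9470510 to 9856910 at P14. Values below are normalised counts as the authors deposited them, with reads divided by a size factor of the library. Libraries are given in the order of replicates 1, 2 and 3. At P7 1 read was worth 0.796, 1.31 and 0.775 normalised counts, and at P14 1.06, 1.06 and 1.09. Log2 fold changes are P14 minus P7 on the log2(normalised count + 1) scale, with the standard error (SE) of the limma fit after the ± sign. A gene was called when its adjusted p was under 0.05 and its log2 fold change over 0.75 in size, and "rose" and "fell" are used of called genes only. P7 replicate 2 and P14 replicate 3 stood apart from the other libraries. P7 replicate 2 had the lowest value of the 3 P7 libraries for 15 of 15 astrocyte markers and the highest for 17 of 17 vascular genes, and P14 replicate 3 had the lowest value of the P14 libraries for 12 of 12 choroid plexus genes. Xist, the RNA that silences an X chromosome in females, had 24667, 90.3 and 25471 at P7 and 21736, 18254 and 22155 at P14, and Ddx3y, a Y-linked gene, had 2.39, 709 and 3.88 at P7 and 1.06, 0 and 0 at P14, so that P7 replicate 2 also differed from the other 5 libraries in sex-linked genes. In a principal component analysis of the 6 libraries the first component held 56.4% of the variance and separated P7 from P14, and the second held 18.0% and set P14 replicate 3 (score -88.1) against P14 replicates 1 and 2 (34.4 and 58.9).

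At P14, 1548 genes (10.0% of those tested) were called higher and 1360 (8.79%) were called lower than at P7, together 18.8% of all genes tested. Each count of list members called from P7 to P14 below is to be set beside these shares. Of the called genes, 518 rose and 594 fell by more than 4-fold on this scale (log2 fold change over 2). The same rule called 480 genes higher and 604 lower from P1 to P7 (3.10% and 3.91%), and 708 higher and 1319 lower from P14 to P28 (4.58% and 8.53%). These steps share the P7 or the P14 libraries with the comparison described here. Fitted on the 6 libraries alone, without the spread at P1 and P28, 2001 genes were called higher and 1952 lower. Without P7 replicate 2 the calls numbered 1217 higher and 1000 lower, without P14 replicate 3 they numbered 1306 and 1172, and without both 1021 and 842. Over all genes the median log2 fold change was -0.09. All 3 P14 libraries were above all 3 P7 libraries in 21.3% of the genes tested and below them in 24.8%. Scaling by library totals alone moved that median to -0.34 and lowered the share of called genes that were higher from 53.2% to 33.2%.

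**Figure D1:**
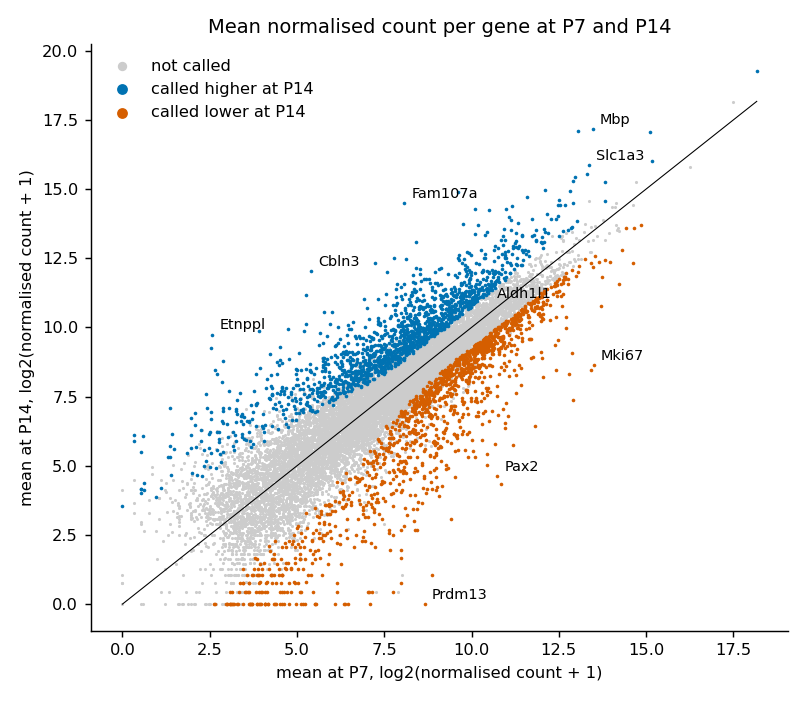
Mean of the 3 libraries at P7 (x axis) and P14 (y axis) for the 15464 genes tested, both as log2(normalised count + 1), with the line of equal level. Blue points are the 1548 genes called higher and orange points the 1360 called lower at P14; Aldh1l1 lies near the line, and Fam107a and Prdm13 lie far above and below it.

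The gene whose promoter drives the reporter was not among the called genes. Aldh1l1 (chr6:90550768-90599171 on GRCm38) had 1985, 936 and 1488 at P7 and 1834, 1978 and 1824 at P14, and its log2 fold change was 0.42 ± 0.25 (adjusted p = 0.27). P7 replicate 2 was the low library, and the other P7 values overlapped those at P14. Gfap, an intermediate filament protein of astrocytes, had 1773, 1119 and 1439 at P7 and 1538, 1447 and 1078 at P14. Its log2 fold change was -0.08 ± 0.30 (adjusted p = 0.89), with overlapping groups, and turned positive when P7 replicate 1 or P14 replicate 3 was left out.

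Most other astrocyte markers were several times higher at P14. Of 15 markers tested 13 rose and none fell, with a median log2 fold change of 2.27 against -0.09 over all genes. The calls numbered 12 without P7 replicate 2 and 13 without P14 replicate 3. Slc1a3 (GLAST), the main glutamate transporter of Bergmann glia (chr15:8634124-8710807), had 12679, 6854 and 11879 at P7 and 56504, 72149 and 50270 at P14 (log2 fold change 2.54 ± 0.23, adjusted p = 4.23e-06). Slc1a2 (GLT-1), the second glial glutamate transporter, had 9132, 4844 and 9051 at P7 and 40733, 41172 and 38590 at P14 (log2 fold change 2.44 ± 0.21, adjusted p = 2.45e-06). For both genes every P14 library was far above every P7 library, and P7 replicate 2 was the lowest of all. Aldoc, the aldolase of astrocytes and of zebrin-positive Purkinje cells, had 2762, 1171 and 2184 at P7 and 19622, 21436 and 19172 at P14 and the largest log2 fold change of the list, 3.38 ± 0.25 (adjusted p = 8.25e-07). S100b, a calcium-binding protein of mature astrocytes, had 572, 366 and 669.7 at P7 and 3999, 4819 and 4370 at P14 (log2 fold change 3.07 ± 0.24, adjusted p = 1.16e-06). The groups were far apart in each of these genes, and the 3 P14 libraries lay close together. Atp1b2, a glial subunit of the sodium-potassium pump, rose by 2.91 on the log2 scale. Fgfr3, a growth factor receptor of astrocytes, and Mlc1, a membrane protein of their end feet, rose by 2.27 and 2.20. Sox9, a transcription factor of glial progenitors and astrocytes, rose less, from 2039, 1225 and 1778 to 3210, 4007 and 2630 (log2 fold change 0.98 ± 0.23, adjusted p = 0.0065), and was not called with library totals alone. Aqp4, the water channel of astrocyte end feet, had 17558, 9324 and 16897 at P7 and 27674, 25745 and 20033 at P14, and its call (log2 fold change 0.79 ± 0.23, adjusted p = 0.026) was lost with library totals alone (adjusted p = 0.097), with DESeq2, where the change of 0.747 was under the fold threshold, and in limma without P7 replicate 2 (0.105), P14 replicate 1 (0.100), P14 replicate 2 (0.090) or both libraries that stood apart (0.056). Its log2 fold change was 0.49 without P7 replicate 2.

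All 8 genes listed as Bergmann glia genes rose, with a median log2 fold change of 2.65. Gpr37l1, a receptor for prosaposin, had the largest change of the 8, with 1542, 769.6 and 1993 at P7 and 18986, 22852 and 16702 at P14 (log2 fold change 3.86 ± 0.40, adjusted p = 1.09e-05). Gdf10, a growth factor of the bone morphogenetic protein family that marks Bergmann glia, had 1687, 869 and 1605 at P7 and 10078, 14130 and 9217 at P14 (log2 fold change 3.04 ± 0.46, adjusted p = 2.94e-04). Gria1 and Gria4 encode the AMPA receptor subunits with which Bergmann glia sense glutamate from climbing and parallel fibres. Gria1 had 2625, 1540 and 2622 at P7 and 10916, 13659 and 10902 at P14 (log2 fold change 2.42 ± 0.36, adjusted p = 2.27e-04), and Gria4 had 3468, 3038 and 3759 at P7 and 13607, 18464 and 14386 at P14 (log2 fold change 2.17 ± 0.22, adjusted p = 1.09e-05). In all 4 genes P7 replicate 2 was the lowest library and P14 replicate 2 the highest. Cacng5, an auxiliary subunit of AMPA receptors, rose by 2.81, Timp4, a metalloproteinase inhibitor, by 2.84, Hopx, a homeodomain-only protein, by 2.09, and Wif1, a secreted Wnt inhibitor, by 2.49 on the log2 scale. P14 replicate 2 was the highest P14 library for 8 of 8 genes and P14 replicate 3 the lowest for 7 of 8. In bulk libraries a larger share of a cell type and more RNA per cell cannot be told apart, and this holds for each list below.

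**Figure D2:**
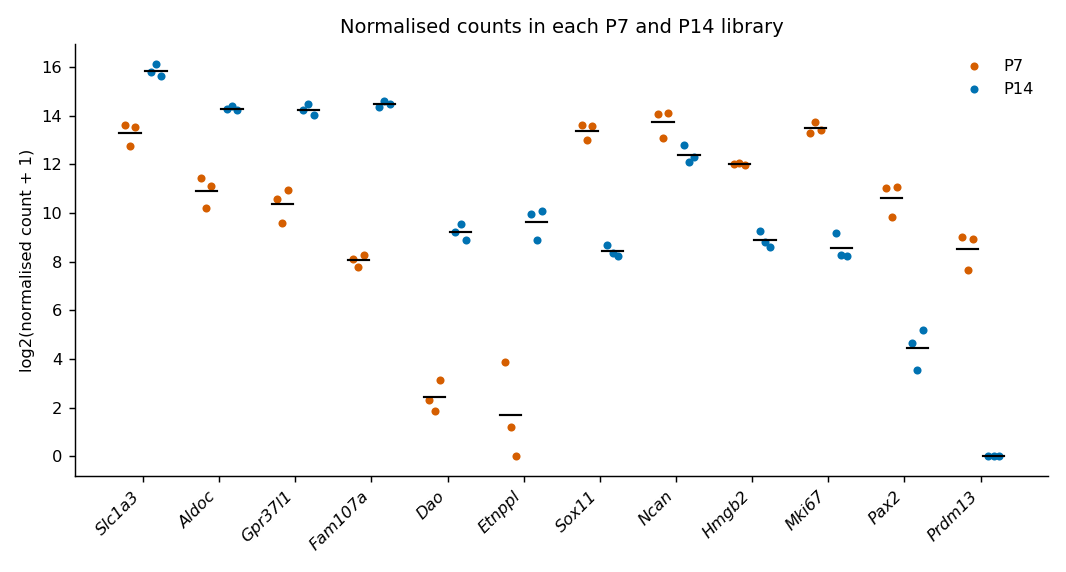
Normalised counts of 12 genes in each of the 3 P7 (orange) and 3 P14 (blue) libraries, as log2(normalised count + 1), with the mean of the log2 values as a black line. The 6 genes on the left rose and the 6 on the right fell, no gene shown has overlapping groups, and Prdm13 is at 0 in all 3 P14 libraries.

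Genes of ion, water and transmitter handling rose as well. Of 16 genes for potassium buffering, water flow and gap junctions, several of them markers already given, 14 rose and none fell, with a median log2 fold change of 2.01. Gjb6 (connexin 30), a gap junction protein of astrocytes, had 203, 191 and 252 at P7 and 1989, 1452 and 1902 at P14 (log2 fold change 3.04 ± 0.39, adjusted p = 6.62e-05), and Gja1 (connexin 43), its partner, had 1979, 1383 and 1862 at P7 and 7279, 8559 and 6397 at P14 (log2 fold change 2.10 ± 0.21, adjusted p = 9.67e-06). Of 9 genes of glutamate uptake and recycling 7 rose. Glul, glutamine synthetase, which turns the glutamate taken up into glutamine, had 3069, 2069 and 2267 at P7 and 12407, 9779 and 10594 at P14 (log2 fold change 2.16 ± 0.19, adjusted p = 3.11e-06). Slc38a3, a glutamine exporter of astrocytes, rose from 1108, 873 and 1070 to 2361, 2630 and 2319 (log2 fold change 1.26 ± 0.17, adjusted p = 1.23e-04). Of 10 genes that handle GABA and glycine 6 rose and none fell. Slc6a9, the glial glycine transporter, had 634, 228 and 546 at P7 and 2458, 2246 and 1877 at P14 (log2 fold change 2.34 ± 0.31, adjusted p = 1.02e-04). Slc6a11, a GABA transporter of astrocytes, had 5318, 1716 and 4082 at P7 and 12827, 6223 and 8228 at P14 (log2 fold change 1.38 ± 0.38, adjusted p = 0.018), and the lowest P14 library was near the highest P7 library. Its call was lost without P7 replicate 2 (adjusted p = 0.079) and without P14 replicate 1 (0.091). Gabbr1, a GABA-B receptor subunit, was not called (0.38, adjusted p = 0.16).

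Receptors of astrocytes divided into those that rose and those that did not pass the test. Of 14 listed, 7 rose and none fell, with a median of 1.43. Without P7 replicate 2 the calls numbered 5 and the median was 0.94. Adra1a, among the 7, had overlapping groups (adjusted p = 0.049), and its call was lost without P7 replicate 2 and under many other settings. The call of P2ry1 was lost without P7 replicate 2 or P14 replicate 2. Adra2a, an adrenergic receptor, had 39, 38 and 36.4 at P7 and 294, 289 and 249 at P14 (log2 fold change 2.84 ± 0.37, adjusted p = 7.59e-05). S1pr1, the receptor for sphingosine 1-phosphate, had 702, 526 and 710.0 at P7 and 3854, 4641 and 3068 at P14 (log2 fold change 2.57 ± 0.22, adjusted p = 2.44e-06), and Adora1, an adenosine receptor, rose by 2.23. The groups did not overlap in these 3 genes. The metabotropic glutamate receptor genes Grm3 and Grm5 were not among them. Grm3 had 1441, 665 and 1174 at P7 and 1043, 812 and 724 at P14 (log2 fold change -0.29 ± 0.27, adjusted p = 0.51) and Grm5 had 447, 315 and 394 at P7 and 284, 297 and 416 at P14 (-0.22, adjusted p = 0.73), with overlapping groups in both. Ednrb, an endothelin receptor of glia, was abundant at both ages and was not called (0.54, adjusted p = 0.14).

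Astrocytes supply other cells with lipids, serine and lactate, and several of the genes concerned rose. Of 16 genes of lipoproteins and lipid efflux 9 rose and 1 fell (median 1.01). Apoe, the main lipid carrier protein of the brain, had 5351, 3132 and 5238 at P7 and 19324, 16929 and 16028 at P14 (log2 fold change 1.97 ± 0.25, adjusted p = 5.84e-05), and Apod, a related carrier, had 1309, 1883 and 2278 at P7 and 9755, 9848 and 7803 at P14 (log2 fold change 2.35 ± 0.34, adjusted p = 1.91e-04). The gene that fell was Lrp8, a reelin and ApoE receptor of neurons and progenitors, which had 2328, 3528 and 2254 at P7 and 1133, 1404 and 1583 at P14 (log2 fold change -0.96 ± 0.21, adjusted p = 0.0046). Of 24 genes of cholesterol synthesis and its control 7 rose and 1, Lbr, fell, and the median was 0.62. The count of 7 was 4 without P7 replicate 2 and 3 without P14 replicate 2, and the call of Lbr was lost without any of P7 replicates 1 and 2 and P14 replicates 1 and 2. Hmgcs1, which makes the precursor of mevalonate, rose from 4413, 3587 and 4467 to 9413, 8988 and 6920 (log2 fold change 1.02 ± 0.19, adjusted p = 0.0013), while Cyp51 and Fdft1 were not called (0.44 and 0.29). In fatty acid metabolism 6 of 19 genes rose, with Acsbg1, an acyl-CoA synthetase of astrocytes, changed most, from 655, 332 and 694 to 4890, 5152 and 3667 (log2 fold change 3.08 ± 0.28, adjusted p = 3.87e-06).

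Of 22 genes of glycolysis and glycogen use 10 rose and none fell, with a median of 0.87. Slc2a1, the glucose transporter GLUT1 of vessels and glia, had 803, 1769 and 689 at P7 and 4284, 3398 and 4286 at P14 (log2 fold change 2.00 ± 0.46, adjusted p = 0.006), and P7 replicate 2, the library with the most vascular RNA, was the highest P7 value. Of 74 genes of oxidative phosphorylation 12 rose and none fell, and the median was 0.51. The count of 12 was 6 without P7 replicate 1 and 6 without P14 replicate 3. Cox6a1, a subunit of cytochrome c oxidase, had 4491, 3725 and 4867 at P7 and 9664, 12018 and 11673 at P14 (log2 fold change 1.35 ± 0.25, adjusted p = 0.0015), whereas Atp5b, a catalytic subunit of ATP synthase, was not called (0.57, adjusted p = 0.012). Under library totals alone the whole distribution sits lower, as given above, and the medians of oxidative phosphorylation and cholesterol synthesis were 0.26 and 0.36.

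Amino acid metabolism held the 2 largest rises of the comparison among genes of at least 10 CPM (reads scaled to a common library total). Of 12 genes of serine, glycine and related pathways 3 rose and none fell, and the list's median was 0.23, which turned negative with library totals alone. Etnppl, which degrades phosphoethanolamine and marks mature astrocytes (chr3:130617448-130635750), had 13.5, 1.31 and 0 at P7 and 993, 480.3 and 1077 at P14 (log2 fold change 7.96 ± 0.95, adjusted p = 4.00e-05). Dao, the oxidase that removes D-serine and is a known product of cerebellar astrocytes (chr5:113999635-114025675), had 3.98, 2.62 and 7.75 at P7 and 591, 745 and 479 at P14 (log2 fold change 6.79 ± 0.56, adjusted p = 1.89e-06). Both genes were near 0 in the P7 libraries and far from it in every P14 library. Psat1, of the serine synthesis pathway, rose by 0.97, a call lost with library totals alone (0.72). Phgdh, the first enzyme of that pathway, had 1201, 601 and 1024 at P7 and 832, 913 and 1113 at P14 and was not called (0.06, adjusted p = 0.89).

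Among the 12 largest rises was Fam107a, an actin-associated protein of radial glia and astrocytes (chr14:8296270-8317607). It had 277, 219 and 312 at P7 and 21189, 24902 and 23159 at P14, and P14 libraries were close to each other (log2 fold change 6.43 ± 0.25, adjusted p = 3.38e-09). Its mean was 308 ± 117 at P1 and 35688 ± 5314 at P28 (SD, n = 3). The metallothioneins, which bind zinc and copper, were also among the large changes. Mt2 had 645, 123 and 253 at P7 and 7569, 7046 and 11599 at P14 (log2 fold change 4.96 ± 0.47, adjusted p = 5.76e-06) and Mt1 had 389, 169 and 256 at P7 and 1826, 2385 and 2854 at P14 (log2 fold change 3.17 ± 0.33, adjusted p = 1.35e-05). Slc39a12, a zinc transporter of astrocytes, rose from 598, 394 and 540.3 to 3441, 2986 and 2921. Mt3 had 10.3, 2.62 and 3.1 at P7 and 39.2, 98.4 and 4.34 at P14 and was not called by limma (2.33, adjusted p = 0.12), but was called higher by DESeq2 and by limma without P14 replicate 3.

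Thyroid hormone paces the second postnatal week of the rodent cerebellum, and astrocytes make the active hormone with the deiodinase Dio2. Dio2 had 387, 169 and 257 at P7 and 1843, 1447 and 1704 at P14 (log2 fold change 2.69 ± 0.44, adjusted p = 5.42e-04). Of the 7 genes listed 4 rose and none fell. Hr, a target of the hormone receptor, had 35, 45.8 and 40.3 at P7 and 264, 336 and 624 at P14 (log2 fold change 3.22 ± 0.54, adjusted p = 6.75e-04). Klf9, another target, had 705, 571 and 684 at P7 and 1580, 1648 and 1858 at P14 (log2 fold change 1.38 ± 0.26, adjusted p = 0.0018). Thrb, a receptor gene, rose by 1.46, a call lost without P7 replicate 2 (adjusted p = 0.072), P7 replicate 3 (0.051), P14 replicate 1 (0.058) or P14 replicate 3 (0.054), and Thra, the other, had 1844, 1399 and 1998 at P7 and 1256, 1111 and 1109 at P14 and was not called (-0.58 ± 0.28, adjusted p = 0.17), except with library totals alone (adjusted p = 0.034). The hormone transporter Slco1c1 was not called (0.82, adjusted p = 0.21). In this gene, which vessels express too, P7 replicate 2 was the highest of the 6 libraries, and without it the log2 fold change was 1.43 and passed the call (adjusted p = 0.0091).

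**Figure D3:**
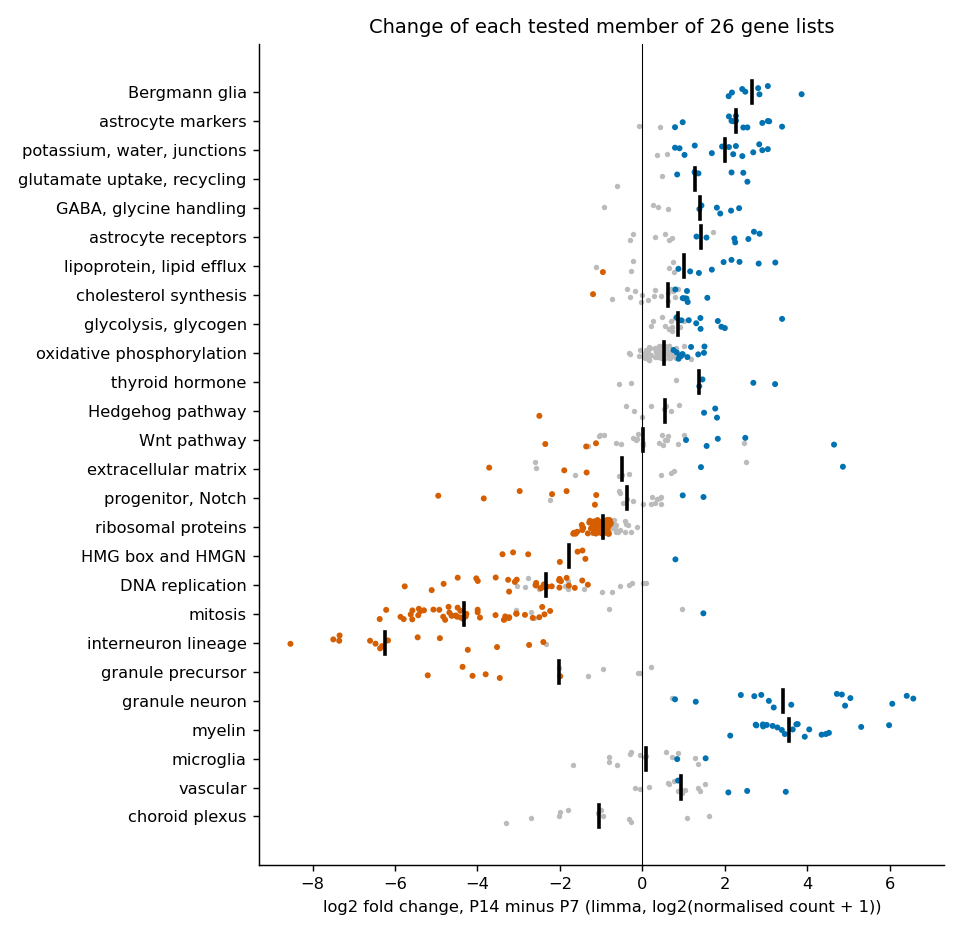
Log2 fold change from P7 to P14 of every tested member of 26 gene lists (limma, log2(normalised count + 1) scale), with called members in blue (higher) or orange (lower), others in grey, and the list median as a black bar. Bergmann glia and myelin genes lie wholly above 0 and interneuron lineage genes wholly below it, while choroid plexus genes spread over both sides with none called.

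Secreted and matrix proteins moved both ways. Of 12 synapse-forming signals 4 rose and none fell. Sparcl1 (hevin), which promotes excitatory synapses, had 41195, 25696 and 40282 at P7 and 138977, 155342 and 121030 at P14 (log2 fold change 1.98 ± 0.19, adjusted p = 6.96e-06), and Sparc, its antagonist, had 5751, 9813 and 6089 at P7 and 27786, 33473 and 32523 at P14 (log2 fold change 2.15 ± 0.25, adjusted p = 3.61e-05). The glypicans Gpc6 and Gpc5 rose by 2.31 and 2.02, while Gpc4 and the thrombospondins Thbs1 to Thbs4 were not called. Chrdl1, a bone morphogenetic protein antagonist that acts on AMPA receptors, had 69.3, 98.2 and 87.6 at P7 and 25.4, 25.4 and 4.34 at P14 and was not called (-2.46, adjusted p = 0.16). The groups did not overlap, and it was called lower on the 6 libraries alone (adjusted p = 0.023) and without P28 replicate 2 (0.037) or P28 replicate 3 (0.041). The lack of a call in the main fit thus depends on libraries outside the comparison. The median of this list (0.05) turned negative with library totals alone.

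Of 15 genes of the extracellular matrix 2 rose and 3 fell, where 10.0% of all genes tested were called higher and 8.79% lower. Ncan (neurocan) and Vcan (versican), the lecticans of the juvenile matrix, fell. Ncan had 17324, 8732 and 17450 at P7 and 7140, 4366 and 5068 at P14 (log2 fold change -1.35 ± 0.25, adjusted p = 0.0016), and Vcan had 15293, 10330 and 15145 at P7 and 4191, 3587 and 3087 at P14 (log2 fold change -1.90 ± 0.23, adjusted p = 4.90e-05). Bcan (brevican), the lectican of the adult matrix, rose from 2471, 1289 and 1822 to 5052, 4097 and 5357 (log2 fold change 1.42 ± 0.21, adjusted p = 2.45e-04). Bcan had been called lower from P1 to P7 (limma log2 fold change -1.82, adjusted p = 1.3e-04). Its mean of 4835 at P14 was below its means of 6412 at P1 and 6039 at P28. The groups of the 3 lecticans did not overlap, and in Ncan the gap between the lowest P7 value, that of replicate 2, and the highest P14 value was small. Hapln2, a link protein of nodes of Ranvier that oligodendrocytes make, had 27.9, 13.1 and 24 at P7 and 665, 695 and 536 at P14 (log2 fold change 4.86 ± 0.62, adjusted p = 7.11e-05). Hapln3 fell from 33.4, 6.54 and 7.75 to 0 in all P14 libraries, at least 4.968-fold. Ptprz1, a receptor phosphatase of radial glia, and Tnc (tenascin C) were not called (0.45 and -0.49).

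Developmental signalling genes were called in both directions. Through the Hedgehog pathway Purkinje cells drive precursor division and instruct Bergmann glia. Of its 12 listed genes 3 rose and 1 fell, where 10.0% of all genes tested were called higher and 8.79% lower. The target Ptch1 had 1574, 1239 and 1497 at P7 and 4203, 4741 and 3270 at P14 (log2 fold change 1.49 ± 0.20, adjusted p = 8.51e-05). Gli1, also a target, had 109, 136 and 165 at P7 and 629, 530.0 and 320.4 at P14 (log2 fold change 1.81 ± 0.40, adjusted p = 0.0048), and Gas1, a co-receptor, rose by 1.76. Sufu, an inhibitor of the pathway, had 2299, 1385 and 2118 at P7 and 395, 216 and 433 at P14 (log2 fold change -2.50 ± 0.47, adjusted p = 0.0015). Shh itself had at most 2 reads over either group. Of 29 Wnt pathway genes 5 rose and 3 fell, where 10.0% of all genes tested were called higher and 8.79% lower. Lgr6, a receptor for R-spondins, had 91.6, 36.6 and 60.5 at P7 and 1298, 1827 and 1412 at P14 (log2 fold change 4.64 ± 0.37, adjusted p = 1.16e-06), Fzd1 rose by 1.83, and Fzd3 fell from 3984, 3148 and 4136 to 1962, 1635 and 1551 (log2 fold change -1.13 ± 0.18, adjusted p = 3.79e-04). Sfrp1, a secreted Wnt inhibitor, had 1416, 2497 and 1650 at P7 and 614, 273 and 257 at P14 (log2 fold change -2.36 ± 0.57, adjusted p = 0.0086), a call lost without both libraries that stood apart (adjusted p = 0.125).

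The lists of Wnt and of progenitor genes had medians near 0 (0.02 and -0.39), the first of them negative with library totals alone. Genes of progenitors and of the Notch pathway gave 7 that fell and 2 that rose of 23. Over all genes tested 8.79% were called lower and 10.0% higher. Sox11, a transcription factor of newborn neurons and progenitors, had 12478, 8106 and 12051 at P7 and 416, 331 and 296 at P14 (log2 fold change -4.95 ± 0.33, adjusted p = 4.17e-07), and was the gene of this list with the largest change. Fabp7, the fatty acid binding protein of radial glia, had 7418, 3433 and 6715 at P7 and 2565, 3305 and 1834 at P14 (log2 fold change -1.15 ± 0.26, adjusted p = 0.0059), and its lowest P7 and highest P14 libraries nearly met. Id4, an inhibitor of basic helix-loop-helix factors, rose by 1.48, and Sox9, given above, is the other gene that rose. Vim (vimentin) had 7032, 5778 and 6136 at P7 and 4584, 5441 and 3840 at P14 and was not called (-0.46, adjusted p = 0.077).

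Transcription factors and transmitter genes of the inhibitory interneuron lineage held 6 of the 12 largest falls. Of 16 such genes 15 fell, and the other, Lhx1, which was picked out after its value was seen, had 431, 483 and 464 at P7 and 96.4, 69.8 and 105 at P14 (-2.35, adjusted p = 0.092). Lhx1 was called lower by edgeR (adjusted p = 0.045) and DESeq2 (0.0074), with a pseudocount of 10 (0.021), on the 6 libraries alone (1.44e-04) and without P28 replicate 2 (0.0036). The median of the fitted values was -6.24, and -5.18 with the 3 members that had no read at P14 set at the bound that 3 reads per library allow. Prdm13, which with Ptf1a specifies cerebellar GABAergic neurons (chr4:21675865-21685963), had 519, 200.2 and 487 at P7 and 0, 0 and 0 at P14 and was at least 125.5-fold lower at P14. Pax2, the marker of interneuron precursors (chr19:44746601-44838269), had 2059, 908 and 2154 at P7 and 24.4, 10.6 and 35.8 at P14 (log2 fold change -6.17 ± 0.94, adjusted p = 3.14e-04). Tfap2a, an AP-2 factor of the same lineage, had 2146, 1055 and 2256 at P7 and 14.8, 27.5 and 15.2 at P14 (log2 fold change -6.47 ± 1.04, adjusted p = 4.90e-04), and its relative Tfap2b had 4575, 1864 and 4317 at P7 and 69.9, 146 and 41.3 at P14 (log2 fold change -5.45 ± 0.67, adjusted p = 5.12e-05). The groups were far apart in each of these genes, and P7 replicate 2 was the lowest P7 library for 15 of 16 genes of the list. Lhx5, a LIM factor, had 787, 414 and 821 at P7 and 1.06, 21.2 and 0 at P14 (log2 fold change -7.50 ± 1.26, adjusted p = 6.80e-04).

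Neurog2, a proneural factor, had 244, 140.0 and 259 at P7 and 1.06, 0 and 0 at P14, where 1 read remained over the P14 libraries, a ratio of 603 (95% counting interval 108 to 23833). Slc6a5, the neuronal glycine transporter, kept 2 reads over the P14 libraries, a ratio of 355 (95% counting interval 98 to 2935), and had 329, 137 and 292 at P7. These intervals cover counting error only. Summed over the list, the P7 libraries had 17489, 8172 and 17151 normalised counts and the P14 libraries 707, 650 and 780. The sum was low in each P14 library, and P7 replicate 2 had less of it than the other P7 libraries. At P1 most of these genes were lower than at P7, with a median of the P1 to P7 step of 2.49 and 3 members called higher in that step. The calls numbered 15 without P7 replicate 2, without P14 replicate 3 and without both.

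Genes of cell division fell together. Of 50 mitosis genes 44 fell and 1 rose, with a median log2 fold change of -4.32, and of 44 DNA replication genes 29 fell and none rose, with a median of -2.34. Mki67 (Ki-67), the proliferation marker, had 9915, 13819 and 10897 at P7 and 579, 307 and 296 at P14 (log2 fold change -4.93 ± 0.39, adjusted p = 1.16e-06), and Top2a, the topoisomerase of dividing cells, had 6292, 8052 and 6891 at P7 and 402, 306 and 244 at P14 (log2 fold change -4.50 ± 0.26, adjusted p = 1.23e-07). Kif11, the kinesin that separates the spindle poles, had 1125, 1424 and 1238 at P7 and 82.6, 52.9 and 44.5 at P14 (log2 fold change -4.41 ± 0.81, adjusted p = 0.0013). In these genes P7 replicate 2 was the highest library, the opposite of its place among the astrocyte and interneuron genes. Birc5 (survivin), of the chromosomal passenger complex, had 207, 317 and 229 at P7 and 0, 5.29 and 3.26 at P14 (log2 fold change -6.37 ± 0.81, adjusted p = 6.27e-05), and Kif2c, a kinesin that removes tubulin from kinetochores, had 312, 336 and 332 at P7 and 1.06, 19 and 1.09 at P14 (log2 fold change -6.21 ± 0.86, adjusted p = 1.44e-04). Cdc25c, the phosphatase that starts mitosis, had 278, 255 and 314 at P7 and 0, 4.23 and 20.6 at P14. The gene that rose was Anln (anillin), a cytokinesis protein that myelinating oligodendrocytes also make, which had 822, 1195 and 958 at P7 and 3085, 3341 and 1974 at P14 (log2 fold change 1.48 ± 0.31, adjusted p = 0.0035). Without P7 replicate 2 39 mitosis genes fell, without P14 replicate 3 42, and without both 35.

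DNA replication genes fell over a wide range. Pcna, the sliding clamp, had 2073, 1858 and 1851 at P7 and 759, 984 and 607 at P14 (log2 fold change -1.32 ± 0.22, adjusted p = 5.98e-04), and Dnmt1, which copies DNA methylation, had 1599, 1580 and 1563 at P7 and 528, 612 and 584 at P14 (log2 fold change -1.46 ± 0.31, adjusted p = 0.0034). Uhrf1, which brings Dnmt1 to new DNA, had 342, 315 and 332 at P7 and 3.18, 7.41 and 5.43 at P14 (log2 fold change -5.76 ± 1.08, adjusted p = 0.0015). Rfc1, a subunit of the clamp loader, had 939, 1034 and 936 at P7 and 646, 564 and 545 at P14 and did not pass the fold threshold (-0.73 ± 0.22), except with library totals alone (-0.99) and without P14 replicate 1 (-0.80). The repair gene Exo1 had 219.8, 263 and 275 at P7 and 1.06, 0 and 5.43 at P14, Neil3, a repair glycosylase, had 253, 287 and 222 at P7 and 2.12, 0 and 14.1 at P14, and both fell. Of 21 genes of cell cycle control 5 fell and none rose. Ccnd2 (cyclin D2), the D cyclin of granule and interneuron precursors, had 5343, 4759 and 6482 at P7 and 552, 276 and 220.5 at P14 (log2 fold change -4.08 ± 0.39, adjusted p = 5.54e-06). The cell cycle inhibitor Cdkn1a had 447, 657 and 408 at P7 and 978, 877 and 1215 at P14 and was not called (1.04, adjusted p = 0.17). It was called higher by limma on the 6 libraries alone (adjusted p = 0.0054) and without P1 replicate 1 (0.020). Without both libraries that stood apart 17 of the 44 replication genes fell.

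The promoters of these genes are shown because short elements in promoters are known from cell cycle genes in general, the cell cycle homology region (CHR, letters TTTGAA), the CCAAT box (letters CCAAT) and E2F sites (letters TTCCCGC or TTTGGCG). The sequences are the 250 bases before the annotated start in RefSeq (GRCm38.p6), 5′ to 3′ on the gene's strand, with any of these letters on either strand in capitals. They are the Kif11 promoter (chr19:37376132-37376381, plus strand), the promoters of Cdk1, the mitotic kinase (chr10:69352913-69353162, minus strand), and of Ube2c, which tags cyclins for destruction (chr2:164769679-164769928, plus strand), the promoter of Mcm5, a subunit of the replicative helicase (chr8:75109259-75109508, plus strand), and that of Hmgb2 (chr8:57511593-57511842, plus strand). Mcm5, Cdk1 and Ube2c were chosen for their letters after the search.
Kif11: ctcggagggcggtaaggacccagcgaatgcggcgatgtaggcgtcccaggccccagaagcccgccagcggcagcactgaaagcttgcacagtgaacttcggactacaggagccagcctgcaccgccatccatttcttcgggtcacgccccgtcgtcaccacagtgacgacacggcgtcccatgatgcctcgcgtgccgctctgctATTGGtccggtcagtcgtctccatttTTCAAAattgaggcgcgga
Cdk1: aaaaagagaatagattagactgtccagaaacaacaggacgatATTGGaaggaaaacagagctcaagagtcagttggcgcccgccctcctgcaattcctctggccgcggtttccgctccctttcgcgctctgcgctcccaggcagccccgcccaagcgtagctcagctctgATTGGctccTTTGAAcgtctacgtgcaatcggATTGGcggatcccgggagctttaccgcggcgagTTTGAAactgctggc
Ube2c: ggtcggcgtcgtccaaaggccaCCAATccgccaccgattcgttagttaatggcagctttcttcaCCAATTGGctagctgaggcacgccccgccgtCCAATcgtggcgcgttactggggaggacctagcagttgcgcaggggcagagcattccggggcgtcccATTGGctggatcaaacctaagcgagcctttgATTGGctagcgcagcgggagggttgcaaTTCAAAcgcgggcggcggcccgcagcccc
Mcm5: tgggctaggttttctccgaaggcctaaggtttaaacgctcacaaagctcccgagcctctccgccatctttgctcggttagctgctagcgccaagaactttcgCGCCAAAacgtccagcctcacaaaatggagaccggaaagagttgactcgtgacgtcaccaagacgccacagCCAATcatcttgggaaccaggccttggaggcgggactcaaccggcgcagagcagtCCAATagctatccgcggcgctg
Hmgb2: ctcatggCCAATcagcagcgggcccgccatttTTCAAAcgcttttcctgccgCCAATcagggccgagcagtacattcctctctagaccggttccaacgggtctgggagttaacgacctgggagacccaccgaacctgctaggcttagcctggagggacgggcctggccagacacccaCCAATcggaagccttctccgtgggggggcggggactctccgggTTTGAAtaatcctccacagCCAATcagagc
Kif11 had 1 CCAAT box beginning 45 bases and 1 CHR beginning 19 bases before the start. Ube2c had 6 matches to the CCAAT box and 1 CHR, at 29 bases. Of these 6 matches 2 overlap in the stretch CCAATTGG, 1 on each strand. Mcm5 had 2 CCAAT boxes and 1 E2F match, at 148 bases. The promoter of Birc5, the mitosis gene with the largest fall, is not printed and held none of these letters. Over the lists, 18 of the 43 mitosis genes with a promoter sequence (41.9%) held a CHR, against 12.8% of the 11566 tested genes with one. A CHR with a CCAAT box was held by 37.2% of the mitosis genes and 4.8% of all, and a CCAAT box by 72.1% and 39.9%. In DNA replication 14 of 36 genes (38.9%) held an E2F match, against 4.7% of the mitosis genes and 9.8% of all. Of 13 interneuron lineage genes none held a CHR. A match is a description of the letters, and binding was not measured.

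The high mobility group proteins, abundant chromatin proteins of immature cells, fell with them. Of 8 tested members 7 fell and 1, Hmgn3, rose. Hmgb2 had 4157, 4255 and 4009 at P7 and 610.0, 443 and 383 at P14 (log2 fold change -3.14 ± 0.24, adjusted p = 9.16e-07), and its P7 libraries were nearly equal. Hmgb1 had 3118, 3527 and 2990 at P7 and 1325, 1168 and 1030 at P14 (log2 fold change -1.46 ± 0.18, adjusted p = 4.31e-05), and Hmgn2 had 1657, 1446 and 1584 at P7 and 535, 599.8 and 447 at P14 (log2 fold change -1.57 ± 0.19, adjusted p = 5.18e-05). Hmgb3, Hmgn1 and Hmgn5 fell by 2.77, 1.38 and 2.00 on the log2 scale. Hmga2, the member of early embryonic cells, had 31.1, 6.54 and 30.2 at P7 and 2.12, 0 and 1.09 at P14 and fell, a call lost without P7 replicate 1 (adjusted p = 0.057) or P7 replicate 3 (0.056). The call of Hmgn3 (0.80) was lost with library totals alone (adjusted p = 0.066) and without P7 replicate 2 (0.074).

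Ribosomal protein genes were lower at P14 in 77 of 77 tested members, and 57 of them passed the call, with a median log2 fold change of -0.95. Rpsa had 11332, 11401 and 11283 at P7 and 4409, 4868 and 4789 at P14 (log2 fold change -1.27 ± 0.20, adjusted p = 3.28e-04), and Rpl4 had 10897, 10486 and 11794 at P7 and 5168, 4903 and 5392 at P14 (log2 fold change -1.10 ± 0.14, adjusted p = 8.43e-05). The largest fall was that of Rps15a, from 3081, 3480 and 3078 to 893, 1214 and 926 (log2 fold change -1.68 ± 0.20, adjusted p = 3.42e-05). Rpl7a had 10571, 9570 and 12100 at P7 and 7277, 6229 and 6956 at P14, and its change of -0.65 was under the fold threshold, except with library totals alone (-0.91). The values of each time point lay close together, P7 replicate 2 included, and the groups did not overlap in the 4 genes named. Many of these genes have near-identical pseudogenes, and how reads shared with them were counted is not given in the sources used here. Under library totals alone 69 fell. That setting moves the median over all genes down to -0.34, so it cannot test the direction of a fall. The step from P14 to P28 had a median of -0.05.

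**Figure D4:**
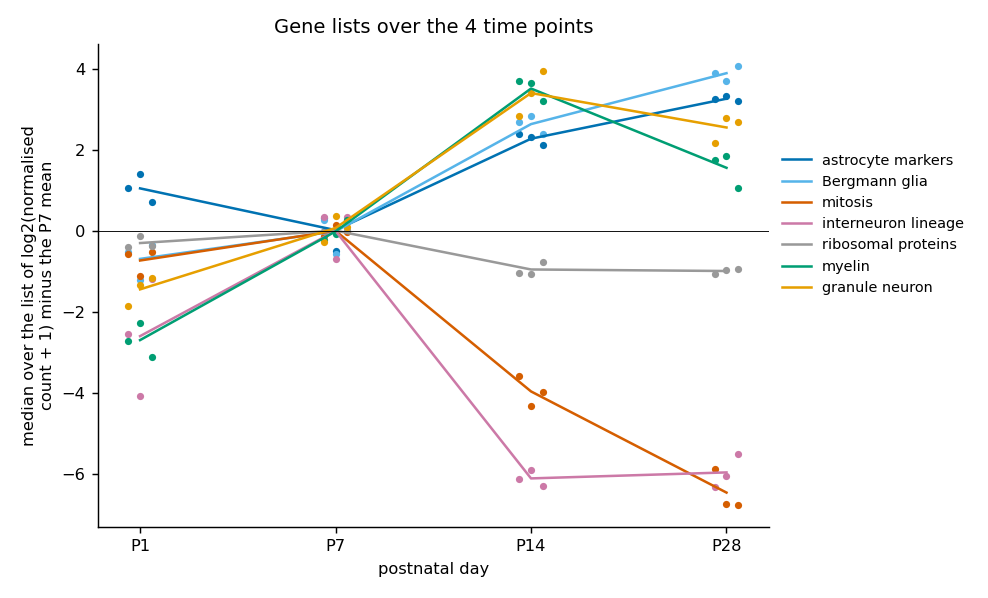
Median over each of 7 gene lists of log2(normalised count + 1) minus the P7 mean of the gene, in each of the 12 libraries (points) and as the mean of the 3 libraries of a time point (lines), for P1, P7, P14 and P28. Astrocyte markers dip from P1 to P7 before they rise, interneuron lineage and mitosis genes drop after P7, and myelin and granule neuron genes are highest at P14.

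Markers of cell types that a sort for GFP should leave out are given beside the results above. Of 16 genes of mature granule neurons 15 rose, with a median of 3.40. Cbln3, a granule neuron partner of cerebellin, had 49.4, 43.2 and 31 at P7 and 2622, 3641 and 6357 at P14 (log2 fold change 6.57 ± 0.33, adjusted p = 5.51e-08), and Gabra6, the GABA-A receptor subunit of granule neurons, had 12.7, 51 and 48.1 at P7 and 1433, 2196 and 3285 at P14 (log2 fold change 6.06 ± 0.55, adjusted p = 3.96e-06). Gabrd, the subunit that joins it, had 0, 10.5 and 8.53 at P7 and 255, 391 and 665 at P14 (log2 fold change 6.41 ± 0.92, adjusted p = 1.92e-04). Snap25, a synaptic vesicle fusion protein, had 2105, 2033 and 2771 at P7 and 15942, 18245 and 30596 at P14 (log2 fold change 3.18 ± 0.27, adjusted p = 2.31e-06). In 16 of 16 genes P14 replicate 3 was the highest P14 library. The summed level of the list was 5380, 7881 and 7186 at P7 and 41130, 50476 and 77859 at P14. Among the 12 largest rises was Faim2, a neuronal gene, with 11.2, 14.4 and 16.3 at P7 and 682, 653 and 1439 at P14. Olfm3, another, had 26.3, 36.6 and 14.7 at P7 and 743, 1085 and 1148 at P14, also with the highest value in P14 replicate 3. No granule neuron gene of the list was at 0 in a P14 library.

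Genes of granule neuron precursors moved the other way. Of 12 genes 6 fell and none rose. Atoh1, which defines these precursors, fell from 30.3, 34 and 45 at P7 to no read in the P14 libraries, at least 11.4-fold. Insm1, Nhlh1 and Nhlh2, factors of newborn neurons, fell by 4.12, 4.36 and 3.46 on the log2 scale. Dcx (doublecortin), a microtubule protein of migrating neurons, had 8070, 5986 and 8423 at P7 and 532, 441 and 636 at P14 (log2 fold change -3.80 ± 0.53, adjusted p = 1.54e-04). Tubb3, a tubulin of neurons, had 767, 639 and 865 at P7 and 188, 135 and 259.5 at P14 and fell as well (log2 fold change -1.99 ± 0.49, adjusted p = 0.009).

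All 20 myelin genes rose, with a median of 3.55. Mbp, myelin basic protein, had 9820, 9324 and 14961 at P7 and 100186, 125612 and 212767 at P14 (log2 fold change 3.64 ± 0.33, adjusted p = 3.99e-06). Mal, a lipid raft protein of myelin, had 564, 844 and 920.1 at P7 and 33859, 31687 and 25227 at P14, and Opalin, an oligodendrocyte membrane protein, had 2.39, 10.5 and 3.1 at P7 and 387, 455 and 226 at P14. Klk6, a protease of oligodendrocytes, was among the 12 largest rises with 5.57, 6.54 and 4.65 at P7 and 211, 653 and 90.1 at P14. The list summed to 26558, 29019 and 39490 at P7 and to 395714, 429740 and 434269 at P14. Mbp had more normalised counts than Slc1a3 in each P14 library, a comparison of reads that takes no account of transcript length. Of 11 genes of oligodendrocyte precursors 3 rose and 1, Pdgfra, fell, where 10.0% of all genes tested were called higher and 8.79% lower. The call of Pdgfra was lost without any one of the P7 libraries or of P14 replicates 2 and 3. Olig1, a lineage factor, rose from 424, 239.5 and 444 to 1822, 1502 and 1874 (log2 fold change 2.27 ± 0.26, adjusted p = 2.66e-05). The part of these cells' RNA in the changes of the astrocyte genes was not tested. The interneuron and mitosis genes were at low levels in the same P14 libraries.

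Markers of the remaining cell types are given list by list, where over all genes tested 10.0% were called higher and 8.79% lower. Of 17 vascular genes 4 rose and none fell, and 15 had a positive log2 fold change, with a median of 0.93. Without P7 replicate 2 the median was 1.79. The calls numbered 8 without P7 replicate 2, 2 without P14 replicate 1, and 1 without any one of the other 4 libraries. Kdr, the endothelial VEGF receptor, had 743, 3019 and 495 at P7 and 1248, 872 and 700.5 at P14, with P7 replicate 2 far above the other libraries (-0.18 ± 0.57, adjusted p = 0.88). The vascular genes summed to 5897, 17133 and 5333 at P7 and to 14051, 13721 and 14398 at P14. Of 16 microglia genes 2 rose, P2ry12 among them, and 1 did so without any one of the libraries other than P7 replicate 1. P2ry12, the purinergic receptor of microglia, had 322, 217 and 191 at P7 and 634, 632 and 812 at P14 (log2 fold change 1.53 ± 0.28, adjusted p = 0.0013), and Csf1r had 839, 760.4 and 595 at P7 and 1242, 999 and 1365 at P14 and was not called (0.72). Of 12 choroid plexus genes 0 were called by limma, 1 had an unadjusted p under 0.05 with the fold threshold passed, 0 were called by edgeR or DESeq2, and 1 was called higher by limma without P14 replicate 3. Ttr (transthyretin), the main secreted protein of that tissue, had 60055, 125927 and 47082 at P7 and 107436, 62320 and 796 at P14, and Enpp2 had 8139, 15540 and 7933 at P7 and 33250, 31041 and 9086 at P14. The choroid plexus genes summed to 70697, 146128 and 57382 at P7 and to 145254, 96104 and 10454 at P14, and the median of the list, -1.04, turned to 0.08 without P14 replicate 3 and to 0.42 without both libraries that stood apart. Of 12 Purkinje cell genes 6 rose and 1, Foxp2, fell, a call lost without P7 replicate 3 or P14 replicate 1. The median of this list was 1.735. Pcp2 had 12.7, 6.54 and 6.2 at P7 and 75.2, 93.1 and 209.6 at P14. Gng13 had 0.796, 3.93 and 0 at P7 and 64.6, 44.4 and 46.7 at P14. Of 8 ependymal genes 1, Rarres2, rose (2.20). Of 13 immediate early genes, which respond to stimulation and dissociation, 2 rose (Zfp36 and Junb) and 1 fell (Egr2), and these calls did not hold without P7 replicate 1, P7 replicate 3 or P14 replicate 3, where 0 rose and 0 fell. Fos, a dissociation-sensitive member, had 4735, 4044 and 4742 at P7 and 4756, 4155 and 5399 at P14 (adjusted p = 0.8). Beside each list above in which none was called in a direction, the count at an unadjusted p under 0.05 was 0 or 1, and edgeR and DESeq2 called 0.

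**Figure D5:**
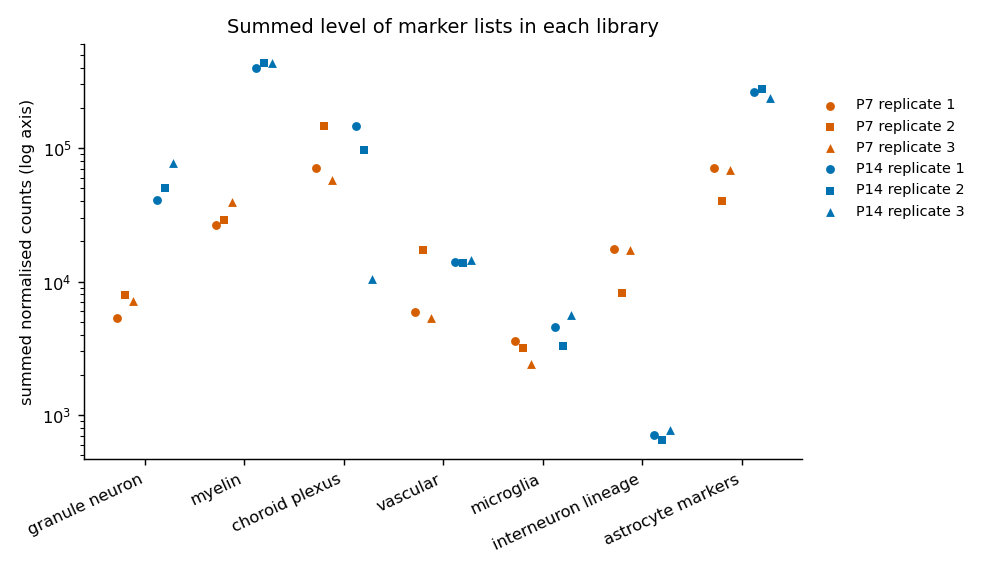
Summed normalised counts (log axis) of the tested members of 7 marker lists in each P7 (orange) and P14 (blue) library, with a circle, square or triangle for replicates 1, 2 and 3. Granule neuron, myelin and astrocyte lists are higher and the interneuron lineage lower in all P14 libraries, P7 replicate 2 is high in the vascular list, and P14 replicate 3 is low in the choroid plexus list.

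The change in the second week was set against the steps before and after it by a test of the difference between steps in the same fit. For 276 genes (1.78% of those tested) the rise from P7 to P14 was larger than both the change from P1 to P7 and that from P14 to P28, and for 209 (1.35%) the fall was. Each test shares the P7 or the P14 libraries, so a high or low P7 or P14 level enters both differences. Of the 15 astrocyte markers 8 were among the 276, as were 6 of the 20 myelin genes and 4 of the 16 granule neuron genes. Of the 16 interneuron lineage genes 9 were among the 209, as were 15 of 77 ribosomal protein genes and 3 of 50 mitosis genes. Fam107a rose by 6.56 more than in the first week (adjusted p = 5.16e-06) and by 5.81 more than from P14 to P28 (adjusted p = 8.77e-06). Dao rose by 6.06 and 4.54 more (adjusted p = 9.50e-04 and 0.012), and Cbln3 by 5.37 and 6.99 more (4.85e-05 and 1.27e-05). The means of Slc1a3 from P1 to P28 were 16707 ± 3878, 10471 ± 3157, 59641 ± 11272 and 121507 ± 12639 (± SD, n = 3), and it continued to rise after P14 (log2 fold change 1.04, adjusted p = 0.01). Extl1, a glycosyltransferase among the 12 largest rises, had 7.96, 3.93 and 6.98 at P7 and 240.4, 379 and 156 at P14 and a mean of 636 ± 658 at P28.

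The neighbouring steps, which share the P7 or the P14 libraries, had values of their own for these lists. Among astrocyte markers 9 of 15 were called lower from P1 to P7 (3.91% of all genes), with a median of -1.02 for that step, and 11 were called higher from P14 to P28 (4.58% of all genes). Myelin genes had 15 of 20 called higher from P1 to P7 (3.10% of all genes) and 16 of 20 called lower from P14 to P28 (8.53% of all genes). The means of Mki67 from P1 to P28 were 6704 ± 2394, 11544 ± 2031, 394 ± 160.4 and 19.7 ± 10.7 (± SD, n = 3). Gm14204, a locus without a known product that was among the 12 largest falls, kept 3 reads over the P14 libraries, had 537, 290.5 and 556 at P7, and gave a ratio of 432 (95% counting interval 148 to 2098).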

How the data were processed

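Libraries of cerebellar GFP+ cells were made from total RNA with the Trio kit, as the paper describes. The authors aligned reads to mm10 with STAR (version 2.5.0a), counted them per gene and divided each library's counts by its DESeq2 size factor (version 1.30.1). The deposited values are this normalised signal. Each was a whole multiple of the library's smallest step (100% within 0.001 of a whole read), which gave back reads for depth, floors and count tests. Whether strand was used, and how shared reads were treated, is not given in the sources used here. Time points rest on the sample labels, since all column names carry P28. Of the symbols 27 had become dates, 2 occurred more than once and 0 were mitochondrial.

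limma (version 3.58.1, R 4.3.3) was run on log2(value + 1) over the 12 libraries, with a mean per time point and a variance trend, and p-values were adjusted by the Benjamini-Hochberg method over 15464 genes. A count test had been planned in case the files held counts. Differences between steps are contrasts of the same fit. On simulated data for P7 to P14 with 200 genes changed by 2 on the log2 scale, limma called 190 and 8 unchanged genes of 15368. The simulated libraries were drawn around the P7 means with a smooth spread and with no library that stood apart. Genes near 0 at P7 were not among the changed ones. These counts are therefore not an error rate for the real libraries. The alternatives were edgeR (version 4.0.16) and DESeq2 (version 1.42.0) on recovered reads, library totals, TMM, pseudocounts of 0.5 and 10, no filter, 10 reads in every library, the 6 libraries alone, other thresholds, the replicate number as a block, and each library left out. Where all 3 libraries of a time point held no read of a gene, a bound was set at a floor of 3 reads per library (95%). In the fit itself a library with no read entered as 0 plus the pseudocount. Floors and intervals cover counting error only. With 3 libraries against 3 an exact permutation test cannot go below 0.1 and was not used.

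The comparison, the gene lists and the tests were chosen with earlier results of these data known. Named genes are those of the largest change among called genes with at least 10 CPM and no overlap, 12 in each direction, the 3 most abundant members of each list with those that changed most, any member of lists of up to 15 genes, the reporter and stained genes, sex-linked genes, and the 4 genes each way with the largest change beyond both neighbouring steps. Coordinates are those of GENCODE M21 on GRCm38, the build of mm10. A few genes that the rule names are not reported here.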

Additional observations from a re-analysis of the deposited data

How the results depend on the processing

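The counts of genes called higher and lower kept within 1.5 times of 1548 and 1360 under most settings. With library totals alone 2209 genes were lower, and with P7 replicate 2 and P14 replicate 3 both left out, an alternative chosen after seeing the data, 1021 were higher and 842 lower. Leaving out 1 of the 12 libraries gave 1178 to 1759 higher and 888 to 1667 lower, the lowest counts of lower genes being 888 without P7 replicate 1 and 903 without P7 replicate 3. The genes that changed more than in both neighbouring steps depended most on the setting. They numbered 448 and 348 with DESeq2, 722 and 655 at an unadjusted p under 0.05, and 113 and 71 without both libraries, against 276 and 209, and 120 to 342 and 82 to 293 with 1 library left out (lowest without P14 replicate 2 and without P7 replicate 3).

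Whether the replicate numbers pair the libraries was not settled. Same-numbered P7 and P14 libraries had correlations of their deviations of 0.036, -0.029 and 0.032. Differently numbered ones ran from -0.055 to 0.020, and values this small cannot decide the question. With the number as a replicate block 1521 genes were higher and 1336 lower. Requiring at least 10 reads in every library, which leaves out genes near 0 at any time point, left 1 mitosis gene called lower and a list median of 0.076. The median of the choroid plexus list ran from -1.88 without P14 replicate 1 to 0.084 without P14 replicate 3, and was 0.418 without both libraries. Genes that were not called and changed sign had small or library-bound changes. With library totals alone Fos was at -0.179 and Phgdh at -0.192. Without both libraries Fos was at -0.092, Kdr at 0.781, Phgdh at -0.347, Ttr at 0.622 and Xist at -0.332. With 1 library left out Fos ran from -0.016 to 0.173, Gfap from -0.255 to 0.077, Kdr from -0.713 to 0.59, Phgdh from -0.23 to 0.27, Ttr from -3.33 to 0.207 and Xist from -0.28 to 3.782. The cause of these shifts was not tested. The 3 libraries in each group and a floor of 3 reads limit what can be said of genes near 0.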
